A study of Sus scrofa with 23 samples.

Results

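The mitochondrially encoded subunits of respiratory complex I were the 7 genes ND1, ND2, ND3, ND4L, ND4, ND5 and ND6, taken by their Ensembl identifiers (in that order ENSSSCG00000018065, ENSSSCG00000018069, ENSSSCG00000018084, ENSSSCG00000018086, ENSSSCG00000018087, ENSSSCG00000018091 and ENSSSCG00000018092) from the 25322 gene rows of the series. They were measured by RNA-seq in backfat (subcutaneous adipose tissue) from 23 crossbred fattening pigs. Group I (-cDDGS+rapeseed oil) was 4 females and 3 males whose feed contained rapeseed oil without cDDGS, the dried grain residue with solubles that is left when corn is fermented to ethanol. The feed with cDDGS was given with rapeseed oil to group II (6 pigs, of which 3 were males), with beef tallow to group III (5 pigs, of which 3 were males) and with coconut oil to group IV (5 pigs, of which 2 were males). Groups II, III and IV thus shared cDDGS and differed in the added fat, and groups I and II shared the added fat and differed in cDDGS. By the study's account, the feed of group I also held less crude fat, less fiber and more starch than that of the other groups. All pigs came from 1 type of cross, the males were barrows, and each library came from a separate animal.

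Complex I, or NADH:ubiquinone oxidoreductase, takes electrons from NADH and passes them to ubiquinone while it pumps protons across the inner mitochondrial membrane. Its ND subunits are the hydrophobic core of the membrane arm: ND2, ND4 and ND5 are the antiporter-like subunits of the proton pump, ND1 joins the membrane arm to the peripheral arm near the ubiquinone site, and ND3, ND4L and ND6 lie between them. All other subunits are encoded in the nucleus. The mitochondrial genome is transcribed into long precursors from which single mRNAs are cut, so its genes do not have a promoter each. ND6 is the only ND gene whose mRNA is read from the other strand, and ND4L and ND4 stay together on a shared mRNA.

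All 7 genes were deeply covered, with 2546 reads (ND3 in the lowest pig) to 108965 reads (ND5 in the highest pig). Between 2437172 and 7979426 reads fell on annotated genes in each library, and the 7 ND genes took 2.31 to 5.83% of them. The libraries were made from partly degraded total RNA after ribosomal RNA depletion, and the pair of mitochondrial rRNA rows still took 24.98 to 44.4% of the gene reads, so every ND level was also calculated with these rows left out. Reads that mapped to 1 place but to no annotated gene made up 53.2 to 60.1% of uniquely mapped reads without cDDGS, and with cDDGS 54.5 to 69.2% (rapeseed oil), 51.1 to 60.8% (beef tallow) and 57.7 to 71.3% (coconut oil). Of the 4 adipocyte markers with an identifier (PLIN1, LIPE, CIDEC, PLIN4) all were read in 23 of 23 pigs, and PLIN1, which coats lipid droplets, lay between 740.1 and 1469 CPM. ADIPOQ, LEP and FABP4 had no identifier in the name tables used here. In bulk backfat, fewer cells of a type and less RNA per cell cannot be told apart.

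CPM are counts per 1000000 reads after TMM scaling. Since longer genes collect more reads, genes were ordered by CPM per 1000 bases of gene. ND6 stood highest by mean (8740 ± 2520 CPM per 1000 bases, SD, n = 23 pigs), followed by ND5 (7301 ± 1791), ND4L (7065 ± 1994), ND1 (7039 ± 1524), ND2 (6597 ± 1859), ND3 (5696 ± 1916) and ND4 (5448 ± 1714). ND6 took the highest of the 7 places in 18 of 23 pigs and lay above ND5 in 21 of 23. The strand setting of the counting is not given in the sources used here. Reads of the strand opposite to ND6 therefore cannot be told apart from its own in this order. ND2 lay above ND3 in 22 of 23 pigs. The places between ND5 and ND2 were not separated by the spread over pigs: ND5 was above ND4L in 14 of 23 pigs, ND4L above ND1 in 13 and ND1 above ND2 in 15. At the lower end, ND3 was above ND4 in 16 of 23 pigs, and ND4, a proton-pumping subunit, was lowest in 14.

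**Figure D1:**
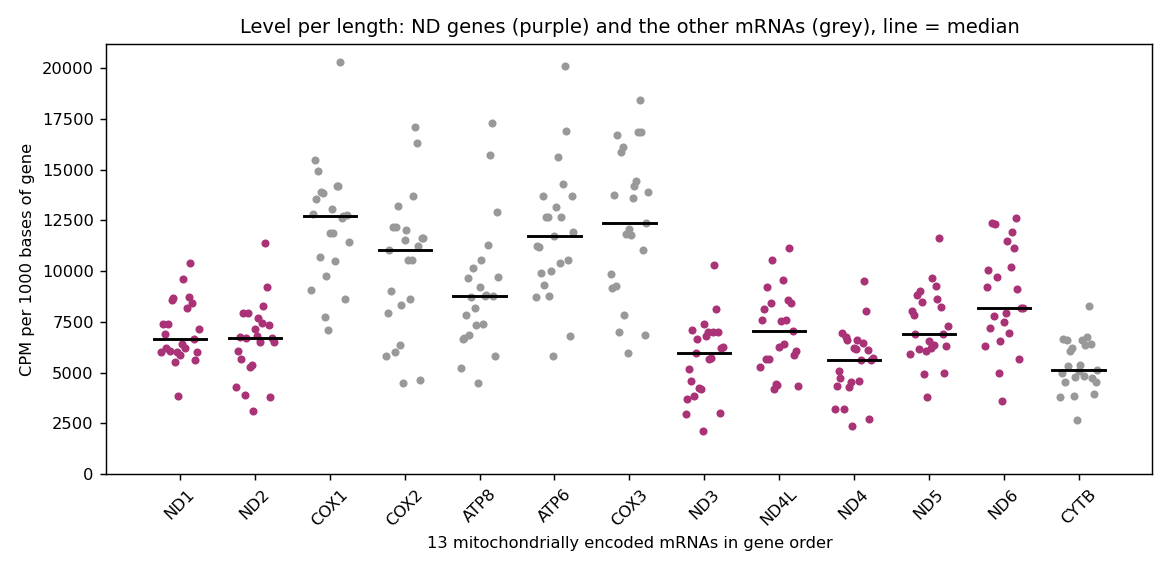
Level of the 13 mitochondrially encoded mRNAs in gene order, as CPM per 1000 bases of gene (vertical axis), with 1 point per pig (n = 23) and a line at the median. ND6 had the highest median of the ND genes (8206) and ND4 the lowest (5628), and COX1, COX2, ATP6, COX3 and ATP8 had higher medians than every ND gene.

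The order was set against the other 6 mitochondrial mRNAs, which encode subunits of cytochrome c oxidase, ATP synthase and complex III. COX1 and COX3 had means of 12309 and 12425 CPM per 1000 bases, and CYTB (5369) lay just below ND4. Of all 13 mRNAs, ND6 held a median place of 6, ND1, ND4L and ND5 of 8, ND2 of 9, ND3 of 11 and ND4 of 12. Gene lengths came from RefSeq, in which ND4L and ND4 overlap by 7 bases and ND5 and ND6 by 17 bases. Reads that touched both genes of such a pair may have been left out as ambiguous. Ambiguous reads amounted to 0.948 to 1.39% of the gene reads over the whole library.

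In total CPM, ND5, the longest gene and a proton-pumping subunit, was the most abundant ND mRNA with 13295 ± 3262 CPM (SD, n = 23). Its values ran from 10739 to 16428 in group I (median 14233), from 6899 to 15436 in group II (median 11166), and were 17580.3, 11600.0, 16908, 15741 and 21222 in group III and 14990, 12526, 9079.6, 11448 and 13281 in group IV. The groups overlapped, with group III reaching highest and group II lowest. ND3, the shortest ND mRNA but one, averaged 1971 ± 663 CPM and varied most, with a coefficient of variation of 33.6% over the 23 pigs against 21.7% for ND1, which varied least.

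The same pigs stood at the ends for most of the 7 genes. Pig 21 of group II had the lowest ND1, ND2, ND3, ND4, ND5 and ND6, and pig 48 of group III had the highest ND1, ND2, ND3, ND4L, ND4 and ND5. Their summed ND levels were 20982 and 68888 CPM, against a median of 42312 over all pigs. Pig 21 had 69.2% of its reads outside genes and pig 48 had 51.1%, the lowest share of the series. What part this share has in their ND levels was not tested. Log2 fold changes without pig 21 or without pig 48 are given beside the comparisons of their groups.

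**Figure D2:**
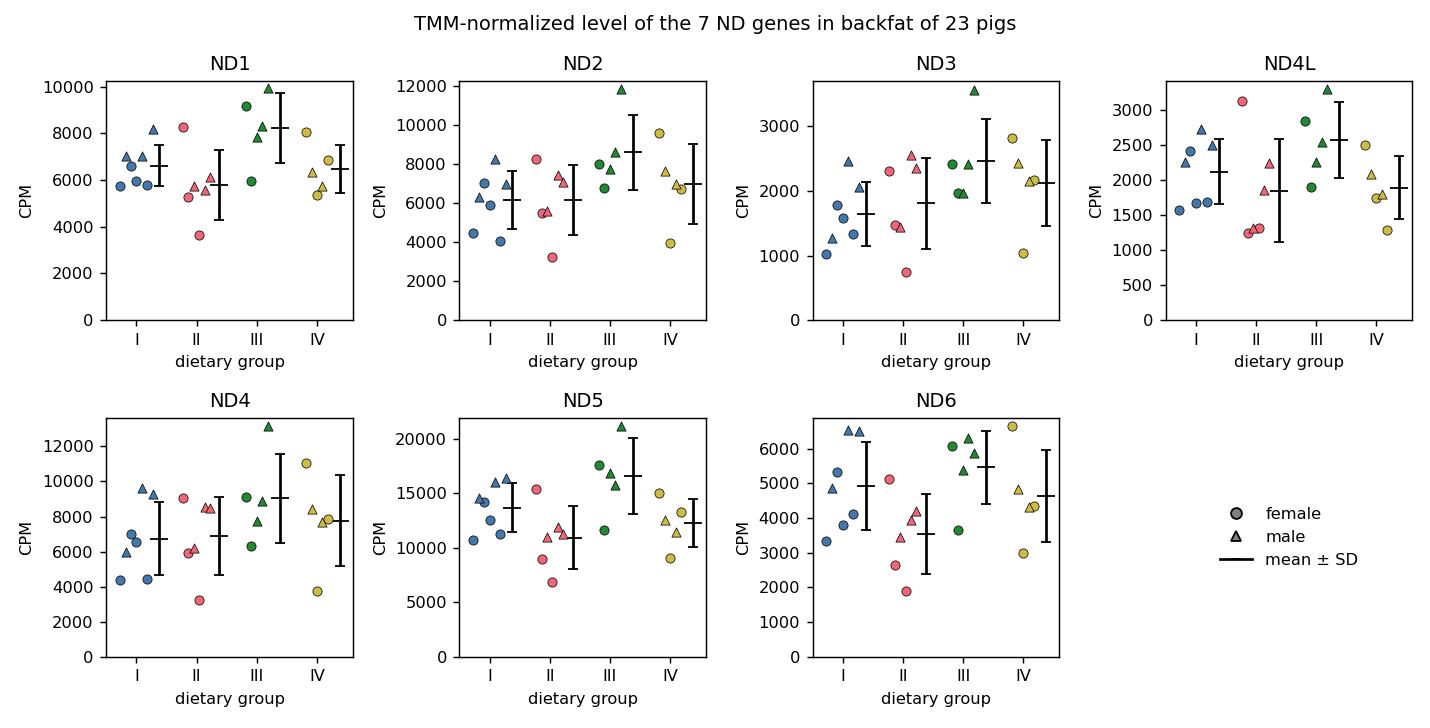
CPM of each ND gene (vertical axis, starting at 0) in the 4 dietary groups, with 1 point per pig (circles females, triangles males) and the mean ± SD (n = 7, 6, 5 and 5). The groups overlapped for all 7 genes, with the mean of group III highest in each panel.

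The first question was whether cDDGS changed the ND mRNAs when the added fat stayed the same (group I versus group II). None of the 7 genes was a DEG, meaning an adjusted p-value under 0.05 in edgeR's quasi-likelihood test with Benjamini-Hochberg adjustment and a fold change above 1.3, where 0.0291% of the 10323 genes tested were DEGs. At an unadjusted p under 0.05 the count was 0 of 7 by edgeR, where 13% of all genes passed, and 1 of 7 by DESeq2 and by limma-voom, where 13.1 and 14.8% of all genes passed. These tools called 84 (0.814%) and 4 (0.0387%) of the 10323 genes as DEGs, with 0 of 7 ND genes among them. The gene furthest from zero was ND6. Its CPM were 3338 to 6534 in group I (median 4858) and 1899.9 to 5119 in group II (median 3698), and 4 of the 6 pigs of group II fell inside the range of group I. Its log2 fold change was -0.48 ± 0.23 (SE), a level 0.719 times that of group I with a 95% interval of 0.513 to 1.01 (edgeR adjusted p = 0.397). ND5 followed with -0.33 ± 0.20 (edgeR adjusted p = 0.489).

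The remaining 5 genes lay closer to zero. ND1 and ND4L both had a log2 fold change of -0.20, with 95% intervals of -0.57 to 0.18 and -0.67 to 0.28. ND2, ND4 and ND3 had log2 fold changes of 0.01, 0.03 and 0.14, and the interval of ND3 reached from -0.42 to 0.70. The data therefore left room for changes beyond the 1.3-fold limit in either direction for ND2, ND3 and ND4. Without pig 21, the log2 fold change of ND6 was -0.35 and that of ND5 -0.22, those of ND4L and ND1 were -0.11 and -0.092, and ND2, ND4 and ND3 had 0.14, 0.18 and 0.30. Cell type markers differed between these groups. The 4 macrophage markers that have an identifier (C1QA, MRC1, CD68, CSF1R) summed to 28.3 to 128 CPM in group I and 136 to 284 CPM in group II. All 3 that were tested were higher in group II at an unadjusted p under 0.05 by edgeR (median log2 fold change 1.18, 0 DEGs). By DESeq2, C1QA and MRC1 were DEGs, where 0.814% of all genes were. The 4 adipocyte markers summed to 2435 to 3540 CPM in group I and 1916 to 3386 CPM in group II. All 4 had log2 fold changes below zero (median -0.39, with 2 lower at this limit by edgeR and 0 DEGs). The part of these cells in the ND values was not tested.

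Group III, fed cDDGS with beef tallow, had the highest ND levels. No ND gene was a DEG against group I, where 0% of the 10423 genes tested were DEGs by edgeR. At an unadjusted p under 0.05, 2 of 7 were higher in group III, where 4.07% of all genes were higher at this limit. DESeq2 gave 3 of 7 and limma-voom 2 of 7 at this limit, where 8.18 and 13.2% of all genes passed in either direction, and neither called an ND gene as a DEG, where 0.125 and 0% of all genes were. ND3 in group I lay between 1024 and 2463 CPM (median 1588) and in group III at 2415, 1963, 1971, 2422 and 3561 CPM. All 5 pigs of group III were above the median of group I, but only pig 48 was above its highest pig. The log2 fold change was 0.58 ± 0.22 (SE), that is 1.497-fold with an interval of 1.09 to 2.06 (edgeR unadjusted p = 0.0165, adjusted p = 0.555).

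ND2 showed a similar picture. It lay between 4045 and 8281 CPM in group I (median 6332) and at 8019, 6789, 7749, 8639 and 11845 CPM in group III, with a log2 fold change of 0.49 ± 0.20 (edgeR unadjusted p = 0.0279, adjusted p = 0.574). The other genes had log2 fold changes of 0.42 (ND4), 0.32 (ND1), 0.28 (ND5), 0.28 (ND4L) and 0.15 (ND6), so that all 7 values were above zero. The 7 genes come from the same precursors and libraries and are not independent of each other. The median over the 7 was 0.32 on the log2 scale, beside 0.0039 over all genes tested. Without pig 48 the values were 0.41 for ND3 and 0.34 for ND2 (edgeR adjusted p = 0.571 and 0.618), 0.25 for ND4, 0.24 for ND1, 0.17 for ND4L and ND5 and 0.12 for ND6. Cell type markers differed beside them. Of the 4 fibroblast markers tested, 3 were lower in group III at an unadjusted p under 0.05 by edgeR (median log2 fold change -0.48, 0 DEGs), with a summed level of 4833 to 11282 CPM against 8558 to 15440 CPM in group I. All 4 adipocyte markers had log2 fold changes below zero (median -0.38, with 1 lower at this limit). ACTA1, the actin of skeletal muscle, ran from 1.76 to 1542 CPM in group III (median 222) and from 0.885 to 966 CPM in group I (median 62.6). The part of these cells in the ND values was not tested.

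Group IV, fed cDDGS with coconut oil, had ND values on both sides of group I. No gene passed an unadjusted p of 0.05 by edgeR, DESeq2 or limma-voom, where 14.2% of the 10388 genes tested by edgeR did and 0% were DEGs. The share that passed was 13.9% by DESeq2 and 17.2% by limma-voom, with 1.42 and 0% of all genes called as DEGs. ND3 (1040.1, 2155, 2174, 2427 and 2817 CPM in group IV) had a log2 fold change of 0.37 ± 0.24 (SE, edgeR adjusted p = 0.509). ND4 and ND2 followed with 0.21 and 0.19, whereas ND1, ND6, ND5 and ND4L had values of -0.03, -0.09, -0.16 and -0.16. Pig 53, the lowest of group IV for all but ND4L, and pig 49, the highest for all 7, set the width of this group. All 4 adipocyte markers were below zero (median -0.45, 3 at an unadjusted p under 0.05 by edgeR), as were the 4 fibroblast markers (median -0.45, 1 at this limit). The 3 macrophage markers tested were above zero (median 0.67, 1 at this limit). The part of these cells in the ND values was not tested.

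With groups II, III and IV combined, pigs fed cDDGS were compared with those without it. Group I had rapeseed oil alone, while groups III and IV had other fats, so cDDGS and the added fat cannot be told apart here. None of the 7 genes was a DEG by edgeR, DESeq2 or limma-voom, and 0 of 7 passed an unadjusted p of 0.05 by any of them, where 15.8% of the 10749 genes tested by edgeR passed it and 0% were DEGs. DESeq2 and limma-voom passed 16.3 and 18.4% of all genes at this limit and called 1.51 and 0.474% as DEGs. The log2 fold changes ran from -0.14 ± 0.19 (SE) for ND6 to 0.36 ± 0.22 for ND3 (edgeR adjusted p = 0.785 and 0.432). Without pig 21, ND6 had -0.082 and ND3 0.42, and without pig 48 -0.17 and 0.29. ND1, at 0.031 with all pigs, had -0.016 without pig 48. With the share of reads outside genes as a covariate, 1 of 7 passed an unadjusted p of 0.05 by edgeR. The summed ND level was 41894 ± 8547 CPM (SD, n = 7) without cDDGS and 43602 ± 11972 CPM (SD, n = 16) with it. All 4 adipocyte markers were below zero (median -0.43, 3 at an unadjusted p under 0.05 by edgeR), as were the 4 fibroblast markers (median -0.25, 1 at this limit). The 3 macrophage markers tested were above zero (median 0.83, 3 at this limit). The part of these cells in the ND values was not tested. The comparisons with group I all share its pigs.

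**Figure D3:**
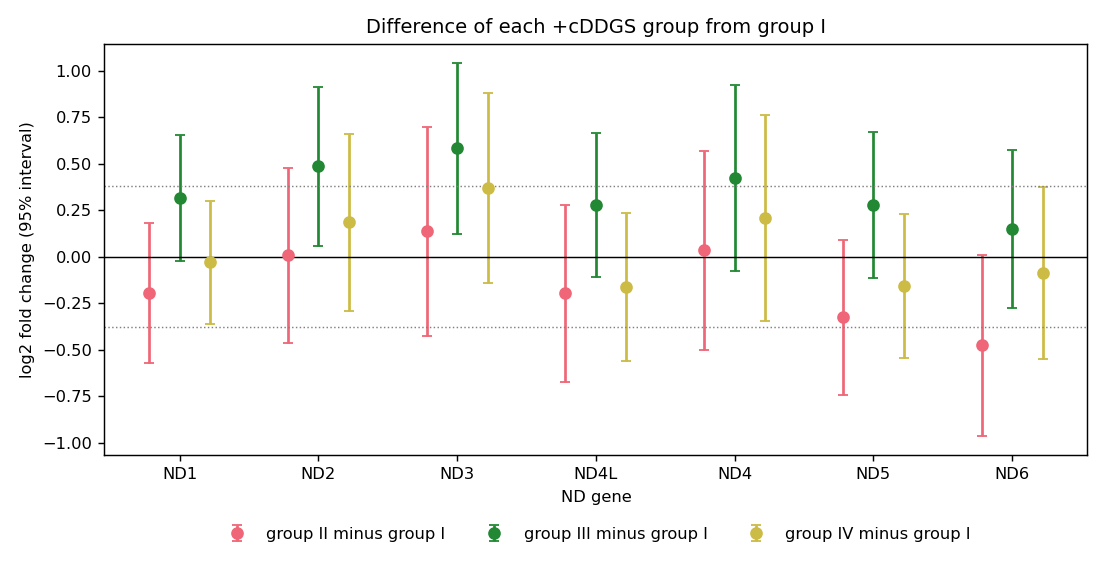
Log2 fold change of each ND gene in groups II, III and IV relative to group I (vertical axis), with 95% intervals from the edgeR fit and dotted lines at a 1.3-fold change. Zero lies within the interval of every gene except ND2 and ND3 in group III.

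Among the groups fed cDDGS, which differ in the fat alone, group III (beef tallow) had higher mean levels of all 7 ND genes than group II (rapeseed oil). No ND gene was a DEG between groups II and III, where 0% of the 10410 genes tested were DEGs by edgeR. At an unadjusted p under 0.05, 3 of 7 were higher in group III by edgeR, where 2.79% of all genes were, and 4 of 7 by DESeq2 and 5 of 7 by limma-voom passed, where 6.60 and 8.93% of all genes passed in either direction and 0.202 and 0% were DEGs. With the share of reads outside genes as a covariate, 0 of 7 passed this limit by edgeR. ND6 measured 6073, 3668, 5389, 6296 and 5885 CPM in group III against 1899.9 to 5119 in group II, and 4 of the 5 pigs of group III were above every pig of group II. Its log2 fold change was 0.63 ± 0.24 (SE, edgeR unadjusted p = 0.0193, adjusted p = 0.728). ND5 had 0.61 ± 0.23 and ND1 0.52 ± 0.21 (edgeR adjusted p = 0.728 and 0.761). ND2, ND4L, ND3 and ND4 had 0.48, 0.48, 0.45 and 0.39. Without pig 21 the values of ND6, ND5 and ND1 were 0.50, 0.51 and 0.41, and those of ND2, ND4L, ND3 and ND4 were 0.35, 0.40, 0.29 and 0.25. Without pig 48 the former were 0.60, 0.50 and 0.43 and the latter 0.33, 0.37, 0.27 and 0.21. Of the cell type markers, all 4 for fibroblasts were below zero in group III against group II (median -0.50, 2 at an unadjusted p under 0.05 by edgeR). The 3 macrophage markers tested were also below zero (median -0.60, 1 at this limit). Adipocyte markers lay on both sides of zero (2 above and 2 below, 0 at this limit). The part of these cells in the ND values was not tested.

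The mean summed ND level of group IV (coconut oil, 42124 CPM) lay between those of groups II and III (37006 and 52996 CPM). From group II to group IV the log2 fold changes ran from 0.02 for ND4L (-0.024 with library totals alone) to 0.38 for ND6, with 0 of 7 at an unadjusted p under 0.05 by edgeR, DESeq2 or limma-voom, where 4.99% of the 10062 genes tested by edgeR passed and 0% were DEGs (5.12 and 0.0199% by DESeq2, 5.79 and 0% by limma-voom). Without pig 21, ND6 had 0.25, ND4L -0.063 and the other 5 genes 0.014 to 0.059. The 3 macrophage markers tested were below zero in group IV against group II (median -0.60, 2 at an unadjusted p under 0.05 by edgeR). So were the 4 fibroblast markers (median -0.47, 0 at this limit), while 2 adipocyte markers were above zero and 2 below (0 at this limit). The part of these cells in the ND values was not tested. From group III to group IV all 7 values were below zero, from -0.21 for ND3 to -0.44 ± 0.20 (SE) for ND4L. ND4L was the only one of the 7 at an unadjusted p under 0.05 by edgeR (adjusted p = 0.997), where 1.82% of the 10230 genes tested were lower at this limit and 0% were DEGs. DESeq2 gave 3 of 7 and limma-voom 1 of 7 at this limit, where 3.97 and 7.07% of all genes passed in either direction, and neither called a DEG among the 7 or among all genes. Without pig 48, ND4L had -0.34, ND5 -0.33, ND1 -0.27, ND6 -0.21, ND2 -0.16, ND3 -0.046 and ND4 -0.044, and ND4L did not pass the unadjusted limit (edgeR adjusted p = 0.776).

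A ratio of ND genes within a library needs no scaling between libraries. ND6 was therefore set against the sum of the 6 ND genes that are read from the other strand. In group I, 13.2 ± 1.29 ND6 reads (SD, n = 7) were counted per 100 reads of the other 6 ND genes, with a lowest value of 11.09, a median of 13.6 and a highest of 14.4. Group II had 10.5 ± 0.733 (SD, n = 6), from 9.30 to 11.2 with a median of 10.7, so that 5 of its 6 pigs lay below every pig of group I. In group III the ratio was 12.4, 10.6, 12.1, 13.5 and 9.34 per 100 reads, and in group IV 13.6, 12.2, 11.98, 12.03 and 11.3. Relative to the other ND genes, ND6 was thus lowest in group II, and group IV lay inside the range of group I.

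The ratio in group II was 0.794 times that in group I (log2 difference -0.33, two-sided exact permutation p = 0.00233, adjusted over the 4 comparisons with group I p = 0.00932). For groups II, III and IV combined it was 0.859 times that in group I (exact permutation p = 0.0057, adjusted p = 0.0114), with 7 of 16 pigs below every pig of group I. Group III (0.874 times, exact permutation p = 0.0884, adjusted p = 0.118) and group IV (0.927 times, exact permutation p = 0.182, adjusted p = 0.182) did not pass. Whether the difference in group II was greater than in groups III and IV was not tested. Leaving out each pig in turn kept the log2 difference of group II between -0.37 and -0.30, with an exact permutation p adjusted over the 4 comparisons of at most 0.0114.

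In both sexes the ratio of group II was below that of group I. Females had a mean of 12.8 ND6 reads per 100 in group I and 10.1 in group II, and males 13.8 and 10.9. The denominator mattered. Against all 12 mRNAs of that strand the ratio in group II was 0.798 times that in group I (exact permutation p = 0.00233). Against ND5 alone, the neighbour of ND6, it was 0.899 times (35.5 ± 4.09 reads per 100 ND5 reads without cDDGS, SD, n = 7, and 31.9 ± 3.35 with it, SD, n = 6, exact permutation p = 0.114, adjusted p = 0.457), and in the combined groups 0.953 times (exact permutation p = 0.411, adjusted p = 0.525).

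Library measures also differed between groups I and II. Of the group II pigs, 17, 20 and 24 had shares of reads outside genes within the range of group I (54.5, 58.6 and 60.1%), and their ND6 ratios were 11.02, 10.99 and 11.2 per 100 reads, against 11.09 in the lowest pig of group I, so that pigs 17 and 20 lay below it and pig 24 above. The 3 macrophage markers tested were also higher in group II at an unadjusted p under 0.05 by edgeR, where 13% of all genes passed in either direction. In their summed level given above, MRC1 had the highest median over the pigs (86.6 CPM), followed by C1QA (24.1 CPM). The part of either in the ND6 ratio was not tested. The strand setting of the counting is not given in the sources used here, so reads of the strand opposite to ND6 or ND5 cannot be told apart from those of the genes themselves.

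**Figure D4:**
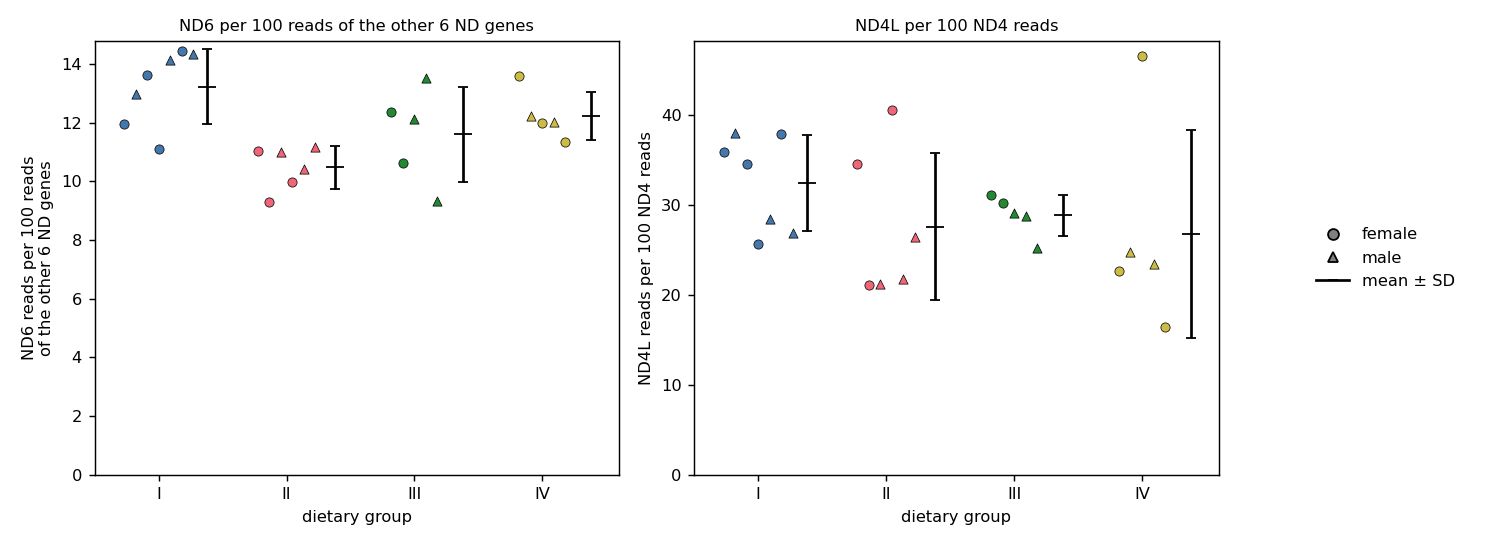
ND6 reads per 100 reads of the other 6 ND genes (left) and ND4L reads per 100 ND4 reads (right), both axes starting at 0, with 1 point per pig (circles females, triangles males) and the mean ± SD. For ND6, 5 of 6 pigs of group II lay below all 7 pigs of group I, and for ND4L per ND4 the SD was 2.27 in group III and 5.31 to 11.6 in the other groups, with pig 53 of group IV highest at 46.6.

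The rest of the ND genes also did not keep a fixed proportion to each other. ND2, ND3 and ND4 together made up 34.3 ± 3.12% of the ND reads without cDDGS (SD, n = 7), and with cDDGS 39.9 ± 3.67% on rapeseed oil (SD, n = 6), 37.8 ± 2.70% on beef tallow and 39.3 ± 4.64% on coconut oil (SD, n = 5 each). This grouping was chosen after the values had been seen and was not tested. In the same libraries, ND2 took a mean share of the 13 mitochondrial mRNAs of 6.61, 7.49, 7.48 and 7.39% in groups I to IV, and ND5 of 14.9, 13.4, 14.5 and 13.3%. The 7 ND genes together took a share of the 13 mRNAs that differed little between groups, 45.3 ± 1.44, 44.9 ± 1.48, 46.1 ± 2.09 and 45.2 ± 1.76% in groups I to IV (SD).

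ND4L and ND4, which share an mRNA, differed in their proportion from pig to pig. Over the 23 pigs there were 29.2 ± 7.32 ND4L reads per 100 ND4 reads (SD), from 16.4 in pig 55 to 46.6 in pig 53. The highest values outside group I were in pigs 53, 21 (40.5) and 17 (34.5), and pigs 53 and 21 had the lowest summed ND levels of the series (27913 and 20982 CPM). Group means were 32.5, 27.6, 28.9 and 26.8 in groups I to IV, with SDs of 5.31, 8.17, 2.27 and 11.6, and the ranges of the groups overlapped. This ratio was looked at after the values had been seen and was not tested.

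Sex was unevenly spread over the groups and was examined with dietary group as a covariate. All 7 log2 differences of males minus females were above zero, from 0.11 for ND1 (-0.032 when libraries were scaled by their totals alone) to 0.36 ± 0.18 (SE) for ND4 and ND3. None was a DEG by edgeR, DESeq2 or limma-voom, where 0.954% of the 10276 genes tested by edgeR were. At an unadjusted p under 0.05 the count was 0 of 7 by edgeR, where 17.7% of all genes passed, 2 of 7 by DESeq2 (17.9% of all genes) and 4 of 7 by limma-voom (18.1%). These tools called 2.36 and 0.740% of all genes as DEGs. ND4 lay between 5951 and 13139 CPM in males (median 8471, n = 11) and between 3233 and 11047 in females (median 6418, n = 12), with wide overlap (edgeR adjusted p = 0.292). Of the 4 fibroblast markers, 3 were lower in males at an unadjusted p under 0.05 by edgeR (median log2 difference -0.48), and 1, the collagen gene COL1A2, was a DEG (edgeR adjusted p = 0.0282). ACTA1 was 2.57 higher in males on the log2 scale, at an unadjusted p under 0.05 by edgeR but not after adjustment (edgeR adjusted p = 0.169). The part of these cells in the ND values was not tested. The cDDGS effect in females minus that in males lay between 0.09 and 0.33 on the log2 scale for the 7 genes (with library totals alone -0.10 for ND3 and -0.019 for ND2), with 0 of 7 at an unadjusted p under 0.05 by edgeR, DESeq2 or limma-voom (edgeR adjusted p = 1.00 for each), where 3.63% of the 11466 genes tested by edgeR passed and 0% were DEGs (3.40 and 0.0262% by DESeq2, 4.08 and 0% by limma-voom).

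Leaving out the mitochondrial rRNA rows changed the level but not the comparison. The summed ND level was then 66684 ± 14050, 58747 ± 16964, 84253 ± 18189 and 67323 ± 16138 CPM in groups I to IV (SD, n = 7, 6, 5 and 5), against 41894, 37006, 52996 and 42124 CPM with these rows. No log2 fold change of the 7 genes in the 9 comparisons moved by more than 0.00973. Scaling on the genes outside the mitochondrial genome alone moved none by more than 0.0111. These fits all used TMM factors, and with library totals alone the largest move was 0.196. The ND reads amounted to 11.06 ± 1.55, 11.2 ± 2.58, 12.6 ± 1.95 and 11.9 ± 2.20 per 100 mitochondrial rRNA reads in groups I to IV (SD, n = 7, 6, 5 and 5), and pig 21 had the lowest value, 6.42.

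The summed ND level was also set against library measures, as a description. With the share of reads outside genes, Pearson's r was -0.50 and Spearman's rho -0.34 over the 23 pigs, and r was -0.39 without the 2 pigs farthest from the median share. Within groups, r was -0.35 for the 7 pigs of group I, -0.81 for the 6 of group II and -0.36 for the 10 of groups III and IV. With the number of reads counted on genes, r was 0.25 over all pigs. With the share of gene reads on the pair of mitochondrial rRNA rows, r was 0.66 and rho 0.75 over all pigs, r was 0.57 without the 2 pigs farthest from the median, and within groups r was 0.66 in group I, 0.45 in group II and 0.77 in groups III and IV. The measures come from the same libraries. When the share of reads outside genes was a covariate, ND1, ND4L and ND6 had log2 fold changes of 0.07, 0.12 and -0.15 between groups I and II.

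**Figure D5:**
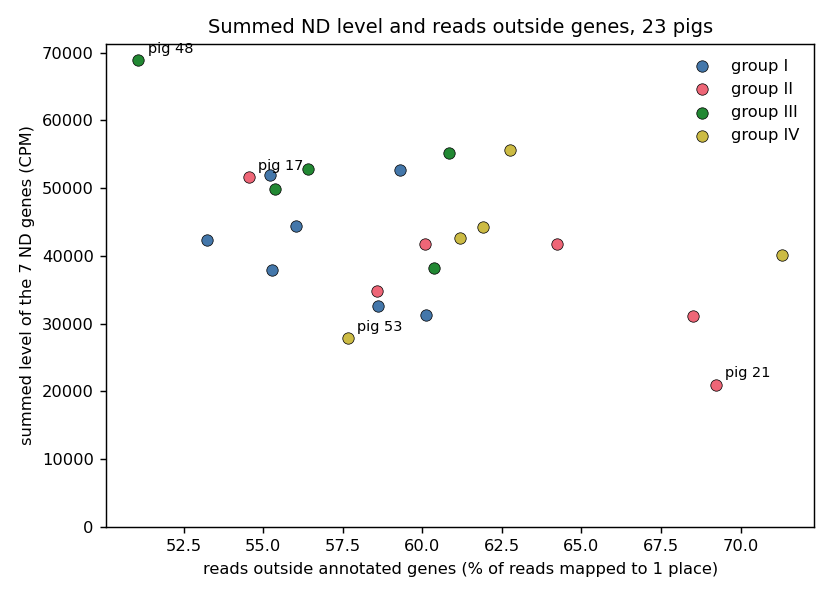
Summed level of the 7 ND genes in CPM (vertical axis, starting at 0) against the percentage of uniquely mapped reads outside annotated genes (horizontal axis), 1 point per pig, coloured by dietary group. Pig 21 lay at 69.2% and 20982 CPM and pig 48 at 51.1% and 68888 CPM, and Pearson's r over the 23 pigs was -0.50.

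The other genes of the pathway were read from lists of names. Of the other 6 mitochondrial mRNAs, none was a DEG in any comparison with group I by edgeR, DESeq2 or limma-voom. Their median log2 fold changes were -0.09, 0.41 and 0.10 in groups II, III and IV, beside -0.20, 0.32 and -0.03 for the 7 ND genes. ATP8, an ATP synthase subunit, had the smallest p of the 6 in the combined comparison (0.41 ± 0.19 on the log2 scale, SE, edgeR adjusted p = 0.300), and COX1, the catalytic subunit of cytochrome c oxidase, had -0.10 ± 0.16.

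Of 37 nuclear-encoded complex I subunits, 20 had an identifier and 18 were tested between groups I and II. By edgeR none was a DEG in any comparison. The count depended on the tool. Between groups I and II, DESeq2 called 2 of 18 as DEGs (NDUFB8 and NDUFS5, both lower in group II) and limma-voom 0. These tools called 0.814 and 0.0387% of all genes there. For groups II, III and IV combined, DESeq2 called 3 of 18 (NDUFB8, NDUFS5 and NDUFS1, all lower) and limma-voom 1 (NDUFB8), beside 1.51 and 0.474% of all genes. Between the sexes DESeq2 called 2 of 17, NDUFA9 and NDUFAB1, both higher in males, where 2.36% of all genes were called. NDUFS1, NDUFA9 and NDUFAB1 are named because they were called, after their values had been seen. Between groups I and II, 5 of 18 were lower at an unadjusted p under 0.05 by edgeR and 0 were higher, where 6.41% of all genes were lower at this limit, and their median log2 fold change was -0.27. In group III the median was -0.03, where the median of the mitochondrially encoded subunits was 0.32. NDUFB8, a membrane arm subunit, averaged 13.7 ± 2.46 CPM without cDDGS (SD, n = 7) and 7.92 ± 1.58 CPM in group II (SD, n = 6), a log2 fold change of -0.79 ± 0.18 (edgeR adjusted p = 0.160). NDUFS5 and NDUFA10, accessory subunits, had -0.93 ± 0.26 and -0.73 ± 0.20 (edgeR adjusted p = 0.217 and 0.216). These genes are also named by the study on these samples and are no independent evidence of a direction.

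Complex I assembly factors (11 tested of 16 named) had a median log2 fold change of -0.25 between groups I and II, with 0 DEGs by edgeR, DESeq2 or limma-voom. At an unadjusted p under 0.05 by edgeR 1 was lower, ECSIT (-0.50 ± 0.20, SE, edgeR adjusted p = 0.317), where 6.41% of all genes were lower. NDUFAF3 and NDUFAF1 had -0.43 and -0.27. Genes of mitochondrial transcription and RNA handling (15 tested of 26 named) had a median of -0.07 with 0 DEGs by edgeR, DESeq2 or limma-voom. By edgeR 1 of the 15 was lower at the unadjusted limit, beside the same 6.41% of all genes. This was LRPPRC, which stabilises mitochondrial mRNAs, at -0.25 ± 0.11 (SE, edgeR adjusted p = 0.363). FASTKD2 and FASTKD3, which take part in mitochondrial RNA processing, had -0.30 and -0.40.

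The genes outside the mitochondrial genome whose log2(CPM + 0.5) followed the summed ND level most closely were sought among 11023 genes over the 23 pigs. They were SAR1B (Pearson's r = 0.93, Spearman's rho 0.84), CUX1 (0.88 and 0.83), TMEM87A (0.83 and 0.77), UFL1 (0.81 and 0.70) and BABAM2 (0.80 and 0.69), with mean levels of 35.1, 85.0, 55.6, 108 and 6.71 CPM. They were chosen for this likeness, and all values come from the same libraries.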

How the data were processed

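From partly degraded RNA the authors made stranded libraries depleted of rRNA, sequenced single-end reads in 2 runs on 1 flow cell, demultiplexed with bcl2fastq, checked with FastQC, trimmed with FLEXBAR, aligned with TopHat and used HTSeq to count reads for each Ensembl gene. How the runs were merged and the strand setting of the counting are not given in the sources used here. The deposited values are raw counts per gene and pig, not normalized, with 5 summary rows that were kept out of library sizes and tests. Sequencing depth is that of the reads counted on genes.

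Groups and sex came from the sample labels. Counts were TMM-normalized in edgeR 4.0.16 (R 4.3.3), filtered with filterByExpr and tested with glmQLFit and glmQLFTest, with only those pigs that a comparison was about, and p-values were adjusted by Benjamini-Hochberg over all genes. DEGs had an adjusted p under 0.05 and a fold change above 1.3. Printed CPM were scaled over all 23 pigs. The ND6 ratio was tested by exact permutation of pigs (1716 regroupings for 7 against 6, 792 for 7 against 5, 245157 for 7 against 16), two-sided. Summed levels and shares were described without a test. DESeq2 1.42.0, limma-voom (limma 3.58.1), other scalings, filters and covariates (sex, RNA integrity number, share of reads outside genes), each sex alone and leaving out each pig were alternatives. The fits were tested on simulated counts. Libraries within a group were compared in 56 pairs, none of which was closer than a chi-square of 7.02 per degree of freedom, so every pig counts as 1 sample.

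Symbols were matched to identifiers through name tables (11804 of 25322 identifiers had one), and gene lengths were those of RefSeq. The assembly of the counted annotation could not be settled, so no positions are given. The text names all 7 ND genes, the other 6 mitochondrial mRNAs, 3 genes of each further list by smallest p between groups I and II, the nuclear subunits named by the study, and the 5 genes most like the summed ND level. The members, lists and the covariate for reads outside genes were chosen with earlier results of these data known.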

Additional observations from a re-analysis of the deposited data

Results flagged for a closer look

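In a group of 5 pigs, 2 values lay far from the others by Dixon's test. ND3 in group III was 3561 CPM in pig 48, and the gap to the next pig was 0.713 of the range of the group (critical value 0.71). ND4L per 100 ND4 reads in group IV was 46.6 in pig 53, with a gap of 0.722 of the range. Chance gives such a value in about 1 of 20 groups, and 2 of 44 groups looked at (4.55%) had one. Without pig 48 the log2 fold change of ND3 between groups I and III was 0.41 in place of 0.58.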

How the results depend on the processing

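With 0 of 7 ND genes called in each of the 9 comparisons, no alternative and no pig left out gave a DEG among them (134 settings and 138 fits without 1 pig). Of the single log2 fold changes, 843 kept their sign and 32 changed it, all without passing the threshold. The cause was not tested. In males alone, 3 of 7 passed an unadjusted p of 0.05 by edgeR between groups I and II (1342 of 10071 genes did). In females alone 0 of 7 did (464 of 10641 genes). Between groups II and III it was 4 of 7 in males (694 of 10355 genes) and 0 of 7 in females (319 of 10416 genes). Whether the sexes differed within these pairs of groups was not tested. Between groups I and II, ND2 became -0.013 with limma-voom, -0.0096 without a filter, -0.0055 with sex, -0.047 with RNA integrity, -0.043 with both and -0.10 in males. ND4 became -0.021 with RNA integrity, -0.016 with both and -0.10 in males, and ND4L 0.047 in females. With the share of reads outside genes as covariate, ND1 became 0.073 and ND4L 0.12 in group II, ND1 0.048 in group IV, and ND4L 0.15, ND5 0.11 and ND6 0.016 in the combined groups. In females alone, ND1, ND4L, ND5 and ND6 became 0.17, 0.010, 0.031 and 0.17 in group IV and ND4L, ND5 and ND6 0.13, 0.015 and 0.022 in the combined groups, and ND4L was -0.031 between groups II and IV. In males alone, ND6 was -0.032 in group III, ND4 -0.041 in group IV and ND1 -0.097 in the combined groups, where limma-voom gave -0.0076. Library totals only moved the median log2 fold change of all genes to 0.11 between groups I and II, -0.18 between groups II and III, -0.18 between the sexes and -0.14 in the difference between the sexes. With them, ND4L was -0.024 between groups II and IV, ND1 -0.032 between the sexes, and the difference of the cDDGS effect between the sexes was -0.019 for ND2 and -0.10 for ND3.

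Leaving out each pig in turn changed the sign of 34 and kept that of 932 values. The ranges were -0.082 to 0.14 for ND2 and -0.050 to 0.18 for ND4 between groups I and II, -0.12 to 0.034 for ND1 and -0.26 to 0.033 for ND6 between groups I and IV, -0.016 to 0.090 for ND1 and -0.085 to 0.053 for ND4L in the combined groups, -0.10 to 0.24 for ND4L between groups II and IV, and -0.12 to 0.32 for ND3 in the difference between the sexes.

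The ND6 ratio kept its side of the threshold in all 60 fits without 1 pig and against all 12 mRNAs. Against ND5 alone the log2 differences were -0.15 in group II and -0.069 in the combined groups, no longer past the threshold, and 0.065 in group IV, with a changed sign. No paired analysis was possible because the groups held different pigs, and equal replicate numbers in the labels do not link them. Each ND gene had at least 2546 reads in every pig, so the spread between pigs and not counting limits these comparisons. With 5 to 7 pigs a group, the 95% interval of ND3, for example, was -0.42 to 0.70 in group II and 0.12 to 1.04 in group III.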
